A study of Mus musculus with 6 samples.

Results

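The 55 protein-coding genes described here encode the SR proteins, the hnRNP proteins, the proteins of the spliceosomal snRNPs and the factors that recognise the 3′ splice site. They were taken from a count table of 15168 genes by gene symbol (symbols beginning with Srsf and a number, Hnrnp, Snrp, Sf3a, Sf3b or U2af, and Sf1), a rule that uses no measured value; these genes were picked for description with earlier results of the same data known. They comprised 10 SR genes, 20 hnRNP genes, 12 snRNP genes and 13 genes of the 3′ splice site group. The RNA came from CD45+ CD11b+ F4/80+ CD64+ macrophages sorted from full-thickness dorsal skin wounds at Day 3, in 3 young and 3 aged samples of wild-type female C57BL6/J mice. Young mice were 12 weeks old and aged mice 24 months old, and wounds were made under isoflurane anaesthesia with buprenorphine as pain relief. The mice were housed at a Singapore or a Manchester facility, and the labels do not give the facility of each sample. Nothing in the labels says whether the samples of 1 age came from separate mice or pools, so the p-values measure the spread between these samples only. The comparison asks how levels of splicing factor mRNA differed between macrophages of aged and young wounds.

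Splicing removes introns from pre-mRNA and is carried out by the spliceosome, which is built from small nuclear RNAs packed with proteins into snRNPs. Most of these RNAs carry a ring of 7 Sm proteins, and U6 RNA carries a related ring of LSm proteins. Sf1, the U2af heterodimer and the Sf3a and Sf3b complexes mark the branch point and the 3′ splice site, SR proteins bind exons and favour their inclusion, and hnRNP proteins coat the transcript and often act against SR proteins. In macrophages, alternative splicing of immune transcripts accompanies the inflammatory response.

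The samples held 15270103 to 17927483 counts each, so that 1 count was worth 0.0553 to 0.0701 CPM (counts scaled to the total of the library after TMM correction), and the members together took 5487 to 6685 CPM. The 4 sort genes were expressed in all samples: mean levels in young and aged samples were 210.4 and 251 CPM for Ptprc, 376 and 749.9 CPM for Itgam, 450.2 and 499.8 CPM for Fcgr1, and 329 and 204 CPM for Adgre1. Itgam, which encodes CD11b, rose in aged samples (log2 fold change 0.99, adjusted p = 0.00735), and Adgre1, which encodes F4/80, fell (-0.69, adjusted p = 0.0292, called in 2 of 6 fits with a sample left out). The part of the sort in this was not tested. Among the other listed macrophage genes, Cd14 rose from 7888 to 16855 CPM (edgeR adjusted p = 0.011, called in 4 of 6 fits with a sample left out). Mertk (log2 fold change -0.72), Lyz2 (-0.68), Cd68 (-0.41) and Csf1r (0.12) were not called. Marker sums for other cells were 579 to 1026 CPM in young and 789.5 to 1431 CPM in aged samples for 11 neutrophil genes, with Ly6g at 6.14 to 10.9 CPM over all samples. Of these 11 genes 4 rose in aged samples (edgeR): Cd177 from 19.3 to 59.3 CPM (adjusted p = 0.0116), Cxcr2 from 14.8 to 32.5 CPM (adjusted p = 0.034), Retnlg from 115 to 207 CPM (adjusted p = 0.0393) and Lcn2 from 65.7 to 131 CPM (adjusted p = 0.0418). With a sample left out, Cd177 was called in 5 of 6 fits, Cxcr2 in 2, Retnlg in 1 and Lcn2 in 1. The sort panel had no step that removed Ly6G+ cells. Keratinocyte markers summed to 0.587 to 0.727 CPM in young samples and to 1.67 to 112 CPM in aged samples, with the highest value in aged sample B, where Krt14 stood at 80.2 CPM. Krt14 was called higher in aged samples (edgeR adjusted p = 0.0259), with the other aged samples at 0.771 and 0.865 CPM and the young ones at 0 to 0.176 CPM. Krt14 was called in 4 of 6 fits with a sample left out (adjusted p = 0.0484 without aged B). Krt5 was too low to be tested, and Krt15 and Trp63 were absent from the count table. Fibroblast markers summed to 23.6 to 41.1 and 13.2 to 119.9 CPM, highest again in aged sample B, with Col1a1 at 1.12 to 15.6 CPM over all samples. T cell markers summed to 2.58 to 4.22 and 1.42 to 3.31 CPM, and Cd3e was too low to be tested; Cd4, the only tested gene of that list, fell from 2.27 to 0.664 CPM (adjusted p = 0.0386), a call that stood in 1 of 6 fits with a sample left out. Endothelial markers summed to 9.97 to 11.2 and 25.0 to 30.6 CPM, mainly through Pecam1 (6.80 to 10.1 CPM in young and 24.4 to 28.3 CPM in aged samples), which rose (adjusted p = 0.0022). Kdr had means of 1.95 and 1.46 CPM (log2 fold change -0.40, adjusted p = 0.634), and Cdh5, Tek and Emcn were too low to be tested. The antibodies listed for flow analysis and sorting included CD31 and TIE2, the products of Pecam1 and Tek. The part of these cells in the results below was not tested. In bulk RNA, fewer cells of a type and less RNA per cell cannot be told apart.

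The snRNP genes were the family that stood lowest in aged macrophages, while the SR, hnRNP and 3′ splice site genes were centred near no difference. Of the 54 members that passed the filter on low counts, 2 fell in aged samples and 0 rose at an adjusted p under 0.05 (edgeR quasi-likelihood test, Benjamini-Hochberg over 11878 genes). Both were snRNP genes, Snrpa1 and Snrpd2. These 2 genes were 3.7% of the members tested, against a background of 7.97% of all tested genes that were lower in aged samples and 9.73% that were higher. No member changed beyond 2-fold, which 4.2% of all tested genes did in the lower direction and 4.59% in the higher. At an unadjusted p under 0.05 there were 12 members (22.2%), against 34.5% of all tested genes. These were 10 lower and 2 higher members, beside 1957 lower and 2144 higher among the 11878 tested genes. DESeq2 called 3 members lower (5.45%) and 1 higher (1.82%), against 7.19% and 9.72% of all genes. Leaving out young sample C or aged sample C left 0 members called, where 0.548% and 1.58% of all tested genes were still called lower; leaving out aged sample B left 1 (Snrpa1, 1.85% of the members against 4.98% of all tested genes). Leaving out young sample A gave 3 called higher (Hnrnpa0, Hnrnph2 and Sf1), which were 5.56% of the members against 13% of all tested genes. Over the 6 fits with 1 sample left out, 0.548% to 9.29% of all tested genes were called lower and 1.24% to 13% higher, so that counts move between these fits for all genes. On total counts with no further scaling, which lowers all genes, 10 members were called lower, 6 of them snRNP genes; these were 18.5% of the members, against 13.1% of all tested genes in that setting.

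The groups can also be set beside each other without a model. All aged samples were below all young samples for 12 members, against 19% of all tested genes, and above them for 2 members, against 19.2%. The 12 members were 6 snRNP genes (Snrpa1, Snrpd2, Snrpb2, Snrpe, Snrpd1 and Snrpg), 3 hnRNP genes (Hnrnpl, Hnrnpa1 and Hnrnpdl) and 3 genes of the 3′ splice site group (Sf3b2, Sf3b5 and U2af1l4), with no SR gene. The other 2 were Hnrnph2 and Sf1. Those named outside the called genes and the family extremes were singled out after their values were seen.

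The median log2 fold change of aged over young samples was -0.55 for the 11 snRNP genes, -0.03 for the 10 SR genes, 0.06 for the 20 hnRNP genes and 0.11 for the 13 genes of the 3′ splice site group, beside -0.02 for all 11878 genes. In the snRNP family 10 of 11 values were negative, compared with 6 of 10, 8 of 20 and 6 of 13 in the others. The family differences were not tested against each other. Scaling on total counts alone moved the median of all genes to -0.20 and those of the families to -0.73, -0.21, -0.11 and -0.07, so that relative to all genes the snRNP family stayed lowest and the other families stayed close to the median gene.

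**Figure D1:**
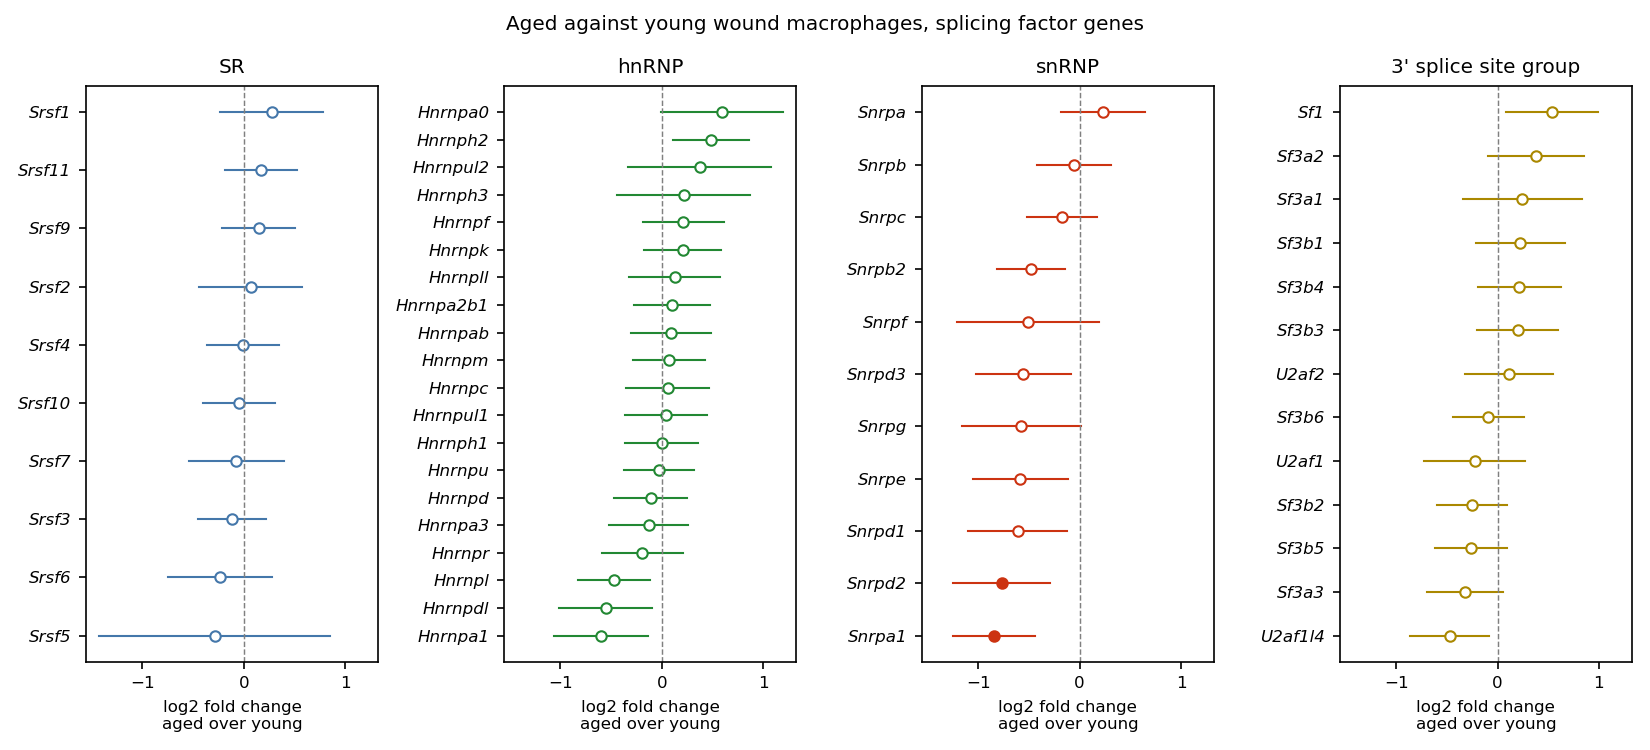
Log2 fold change of aged over young samples (x axis) for each tested member, by family, with 95% confidence intervals from the edgeR fit. Filled points mark the 2 genes called at an adjusted p under 0.05, Snrpa1 and Snrpd2; 10 of 11 snRNP points lie left of the dashed line at 0, and the SR interval that reaches furthest is that of Srsf5.

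Snrpa1 encodes a protein of the U2 snRNP that works together with the product of Snrpb2. In the annotation of the files (mm10) it spans chr7:66059003-66074588 on the plus strand. Its levels were 70.4, 52.0 and 76.4 CPM in young samples A, B and C and 36.2, 40.0 and 34.2 CPM in aged samples A, B and C. All aged samples lay below the lowest young sample, which was young B. The means were 66.3 ± 12.7 and 36.8 ± 2.96 CPM (SD, n = 3 each), a log2 fold change of -0.85 (SE 0.18), or 1.80-fold higher in young samples, with an edgeR adjusted p of 0.0158. The call was kept in 13 of 15 alternative settings and was lost without young sample C (adjusted p = 0.0853) and without aged sample C (adjusted p = 0.069).

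Snrpd2, at chr7:19149722-19153543 on the plus strand, encodes 1 of the 7 proteins of the Sm ring. Young samples A, B and C held 15.6, 11.1 and 12.6 CPM and aged samples 7.29, 7.26 and 8.46 CPM. The groups did not overlap, and the aged values were closer together than the young ones. The means were 13.1 ± 2.30 and 7.67 ± 0.686 CPM (SD, n = 3 each), with a log2 fold change of -0.77 (SE 0.22) and an edgeR adjusted p of 0.0369. This call stood in 8 of 15 alternatives. It was lost whenever any 1 of the 6 samples was left out (adjusted p from 0.0564 without young B to 0.111 without young C) and when trends of transcript length and GC content were removed (adjusted p = 0.0768). A processed pseudogene, Gm10120, held 20.4% of the counts of Snrpd2 and its copy together, and with both added the log2 fold change was -0.85 with an adjusted p of 0.0264.

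The other Sm ring genes had negative log2 fold changes and did not pass the test. Their values by sample are given because they share the ring with Snrpd2, a choice made after they were seen. The 7 genes of the ring (Snrpb, Snrpd1, Snrpd2, Snrpd3, Snrpe, Snrpf and Snrpg) had a median log2 fold change of -0.58, with 7 of 7 negative, 1 called and 4 without overlap between the groups; of all tested genes 7.97% were called lower, 13.5% among genes in the snRNP length range, and 19% lay lower without overlap. Snrpe held 12.8, 10.7 and 11.6 CPM in young and 6.73, 8.02 and 8.65 CPM in aged samples (log2 fold change -0.59, 95% interval -1.05 to -0.12, adjusted p = 0.0779). Snrpd1 held 31.4, 18.5 and 28.1 CPM in young and 14.7, 18.5 and 17.9 CPM in aged samples (-0.61, -1.10 to -0.12, adjusted p = 0.0784). Snrpg held 4.98, 4.58 and 6.14 CPM in young and 3.29, 3.57 and 3.64 CPM in aged samples (-0.58, -1.16 to 0.01, adjusted p = 0.151). In these 3 genes the groups did not overlap, although young sample B and aged sample B of Snrpd1 were nearly level.

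Snrpd3 held 79.1, 48.2 and 84.2 CPM in young and 49.6, 45.8 and 48.6 CPM in aged samples (log2 fold change -0.55, 95% interval -1.02 to -0.09, adjusted p = 0.0903), and it was called lower when young sample B was left out (adjusted p = 0.0334). Snrpf held 6.97, 3.70 and 4.56 CPM in young and 3.36, 3.06 and 4.26 CPM in aged samples (-0.51, -1.21 to 0.19, adjusted p = 0.278). In both genes young sample B lay among the aged samples. Snrpb encodes the ring's largest subunit, and with 215 CPM per kb of transcript it was the most abundant snRNP gene by this measure. It held 263, 222 and 278 CPM in young and 265, 239 and 229 CPM in aged samples. The groups overlapped, with means of 254 ± 29.1 and 245 ± 18.5 CPM (SD, n = 3 each) and a log2 fold change of -0.06 (SE 0.16, 95% interval -0.42 to 0.31, adjusted p = 0.839).

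The other snRNP genes encode proteins of the U1 and U2 particles. Snrpb2, the partner of Snrpa1, held 50.9, 52.8 and 56.9 CPM in young and 37.3, 36.4 and 41.4 CPM in aged samples. The groups did not overlap and the log2 fold change was -0.48 (SE 0.15, 95% interval -0.82 to -0.14), but the adjusted p of 0.0528 missed the threshold. It was called in 4 of 15 alternatives, among them DESeq2 (adjusted p = 0.0481). Snrpc, a U1 protein and the second most abundant snRNP gene per kb (64.1 CPM per kb), held 64.2, 56.1 and 69.8 CPM in young and 58.3, 52.3 and 57.9 CPM in aged samples, and the groups overlapped (means 63.4 ± 6.84 and 56.2 ± 3.37, log2 fold change -0.17, SE 0.16, 95% interval -0.52 to 0.17, adjusted p = 0.46). Snrpa, the other U1 protein of the list, was the only snRNP gene with a positive log2 fold change. It held 63.8, 61.1 and 74.0 CPM in young and 61.4, 93.3 and 78.6 CPM in aged samples, with overlap (0.23, SE 0.19, 95% interval -0.18 to 0.64, adjusted p = 0.405). Snrpn, which encodes a tissue-restricted relative of Snrpb, was not tested, with counts of 0, 8 and 0 in young and 5, 12 and 8 in aged samples.

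**Figure D2:**
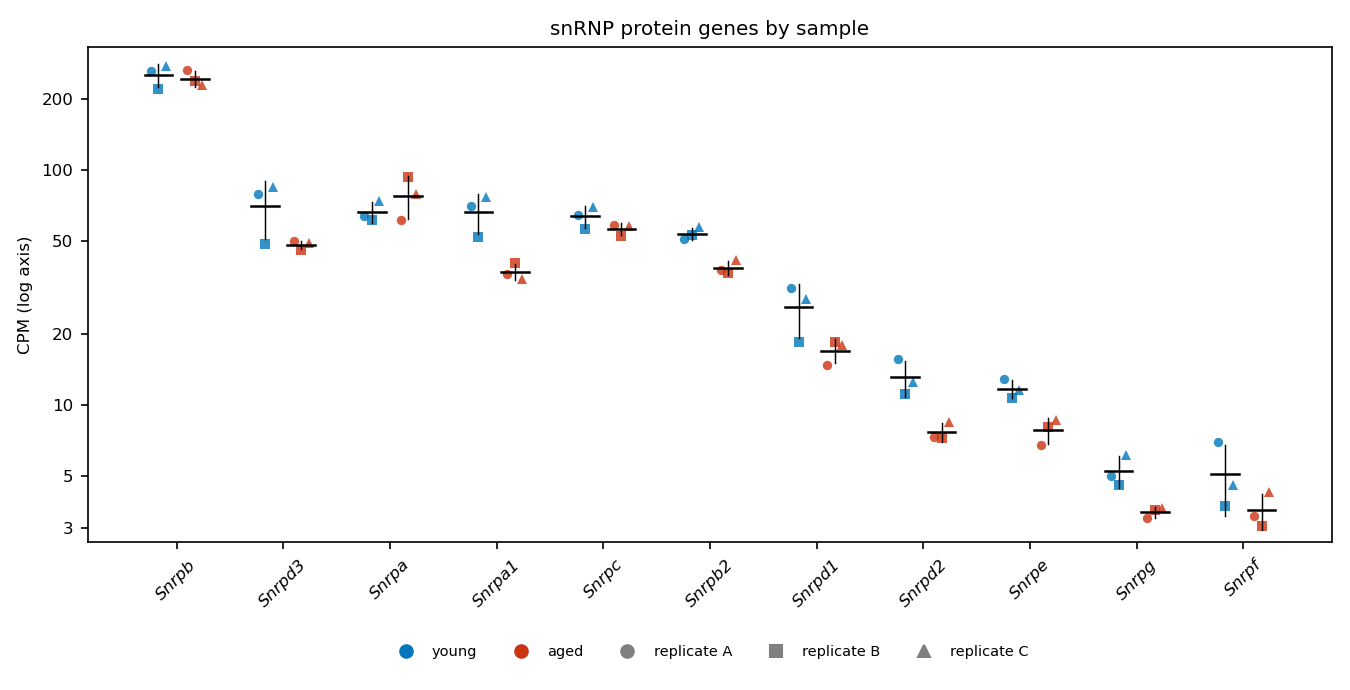
Level in CPM (log axis) of the 11 tested snRNP genes in each sample, with the mean (horizontal bar) and SD (vertical line) of 3 young and 3 aged samples. The aged points of Snrpa1 lie between 34.2 and 40.0 CPM, below all young points, while Snrpb and Snrpa overlap and young sample B (square) is often the lowest young point.

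The 2 called genes and 2 further snRNP genes with a RefSeq promoter entry are shown by the 300 bases around their RefSeq start (250 before, 50 after; GRCm38.p6, 5′ to 3′ on the strand of the gene), since several snRNP genes had lower values side by side. Capitals mark the letters CCGGAAG of ETS factors and the GC box GGGCGG on either strand. The start used for Snrpa1 lies inside the interval that the files give for the gene. The windows are chr7:66060086-66060385 (plus) for Snrpa1, chr7:19149588-19149887 (plus) for Snrpd2, chr2:143062819-143063118 (plus) for Snrpb2 and chr1:133610231-133610530 (minus) for Snrpe.
Snrpa1: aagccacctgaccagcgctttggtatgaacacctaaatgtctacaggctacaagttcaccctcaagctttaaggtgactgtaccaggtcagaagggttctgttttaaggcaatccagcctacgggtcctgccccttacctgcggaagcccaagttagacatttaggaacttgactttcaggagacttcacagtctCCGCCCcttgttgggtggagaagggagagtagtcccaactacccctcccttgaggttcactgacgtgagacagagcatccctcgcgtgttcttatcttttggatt
Snrpd2: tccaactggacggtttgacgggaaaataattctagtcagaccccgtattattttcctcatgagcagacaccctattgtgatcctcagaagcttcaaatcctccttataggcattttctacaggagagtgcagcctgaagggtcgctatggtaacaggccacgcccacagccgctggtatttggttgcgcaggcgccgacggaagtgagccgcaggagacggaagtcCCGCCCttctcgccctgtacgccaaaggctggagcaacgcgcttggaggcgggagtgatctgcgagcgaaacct
Snrpb2: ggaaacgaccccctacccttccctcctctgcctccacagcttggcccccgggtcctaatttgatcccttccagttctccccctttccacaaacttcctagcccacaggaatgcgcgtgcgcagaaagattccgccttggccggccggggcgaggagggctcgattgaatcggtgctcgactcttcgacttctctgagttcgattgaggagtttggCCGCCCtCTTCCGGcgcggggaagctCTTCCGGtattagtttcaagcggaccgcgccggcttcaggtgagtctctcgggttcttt
Snrpe: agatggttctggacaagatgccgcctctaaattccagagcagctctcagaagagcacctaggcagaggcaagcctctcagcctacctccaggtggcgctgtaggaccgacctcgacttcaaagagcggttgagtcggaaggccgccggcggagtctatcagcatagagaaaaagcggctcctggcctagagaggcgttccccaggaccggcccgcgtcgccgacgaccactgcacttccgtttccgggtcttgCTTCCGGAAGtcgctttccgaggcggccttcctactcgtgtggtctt

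A GC box was found in the windows of Snrpa1, Snrpd2 and Snrpb2, and ETS letters in those of Snrpb2 and Snrpe, where the matches on both strands of Snrpe overlap. Of the 55 members, 48 had a promoter entry, among them 10 snRNP genes that included the untested Snrpn. A member was counted when any of its entries held the letters, and 10 members had more than 1 entry. The percentages beside these counts are given by promoter. ETS letters occurred in 4 of these 10 snRNP genes, 4 of 10 SR genes, 2 of 18 hnRNP genes and 6 of 10 genes of the 3′ splice site group, beside 18.8% of the promoters of tested genes and 8.86% of all 32851 promoters. The GC box occurred in 5 of 10, 9 of 10, 14 of 18 and 6 of 10, beside 62.0% and 35.7%. The CCAAT letters occurred in 4 of 10, 4 of 10, 13 of 18 and 4 of 10, beside 37.9% and 37.4%. The letter matches are descriptions of these windows, and binding was not measured.

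The lower snRNP values were not the same size in each young sample. Each gene was centred on its mean over the 6 samples on the log2 CPM scale, and the median of these deviations over the snRNP genes was 0.43, -0.08 and 0.33 in young samples A, B and C and -0.30, -0.25 and -0.14 in aged samples A, B and C. By this median all aged samples were below all young samples, and young sample B stood closer to the aged samples than to young A and C. By the summed level, in which Snrpb weighs most, the snRNP genes took 663, 540.5 and 702 CPM in young and 543, 548 and 533 CPM in aged samples, and the groups overlapped, with young B below aged A and B. Young sample B also had the lowest median of all 6 samples in the SR (-0.097), hnRNP (-0.201) and 3′ splice site (-0.107) groups. It was the lowest young sample in the sum of 18 proliferation genes as well. That sum was 357, 205 and 312 CPM in young samples A, B and C and 152, 171 and 147 CPM in aged samples. Of these 18 genes 13 fell and 1, Mki67, rose in aged samples (edgeR, adjusted p under 0.05), with a median log2 fold change of -1.49. Top2a was at 3.28 ± 2.12 and 1.98 ± 0.693 CPM (SD, n = 3 each) and was not called. The part of proliferating cells in the snRNP values was not tested.

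**Figure D3:**
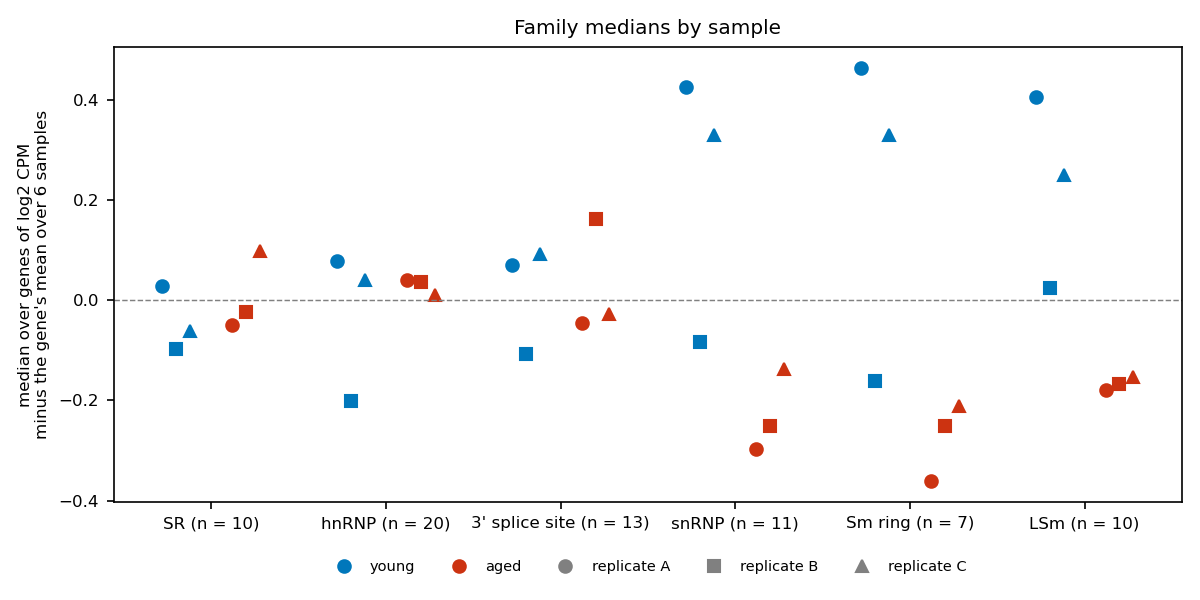
Median over the genes of each family of the log2 CPM value minus the mean of that gene over the 6 samples (y axis), for each young and aged sample. The snRNP, Sm ring and LSm medians are lower in all aged samples than in all young samples, with young sample B (blue square) nearest to them, while those of the SR, hnRNP and 3′ splice site groups overlap.

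Transcript length moved with the age difference in these libraries. Among all tested protein-coding genes the median log2 fold change was -0.21 below 750 bases, -0.22 from 750 to 1000 bases and -0.19 from 1000 to 1500 bases, but 0.19 from 2500 bases on. Called lower were 123 of 999, 152 of 1010 and 229 of 1546 genes in the 3 short classes, 7.64% between 1500 and 2500 bases and 3.85% above. The tested snRNP genes had transcripts of 503 to 1739 bases, the median per gene in the annotation. Over the 4118 tested protein-coding genes in that range the median log2 fold change was -0.19 and 13.5% were called lower, beside -0.55 and 2 of 11 (18.2%) for the snRNP genes. With length and GC trends removed, a choice made after the data were seen, the snRNP median was -0.42 and Snrpa1 was still called (log2 fold change -0.71, adjusted p = 0.0273).

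**Figure D4:**
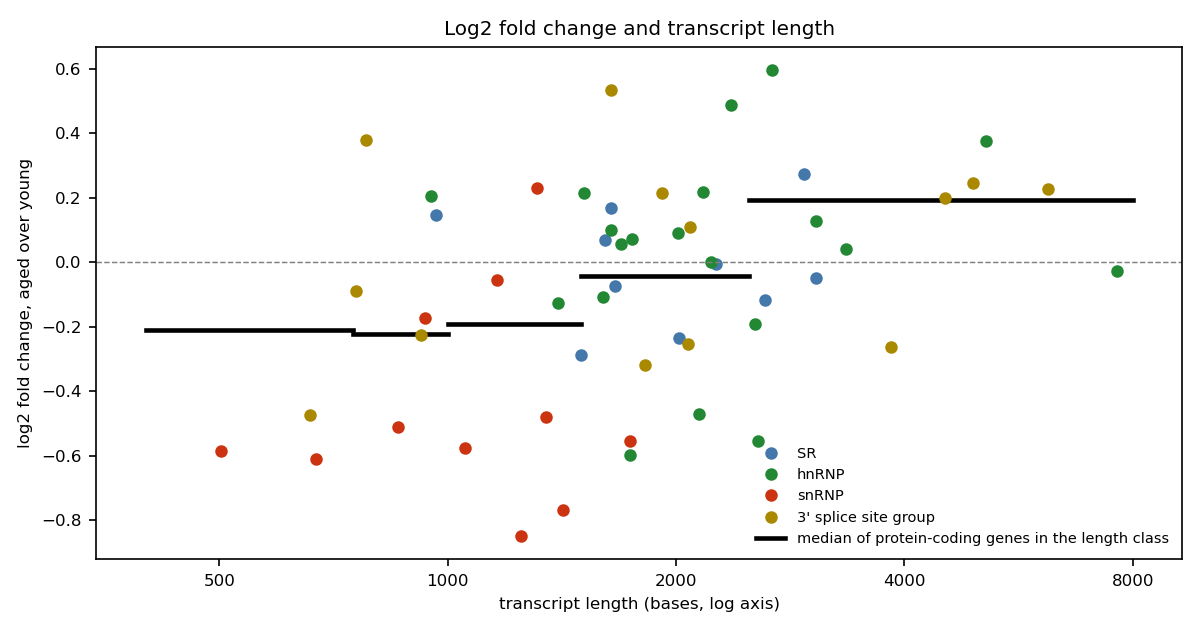
Log2 fold change of aged over young samples (y axis) against the transcript length of each tested member (x axis, log scale), with black bars for the median of all tested protein-coding genes in 5 length classes. The bars lie at -0.21, -0.22 and -0.19 in the 3 classes below 1500 bases and at 0.19 from 2500 bases on. Most snRNP points lie below the bar of their class.

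None of the 10 SR genes was called in either direction, and 9 of the 10 had 95% intervals within a 2-fold change. Adjusted p-values ran from 0.429 to 0.986 (edgeR). The sum over the family was 1481, 1163 and 1243 CPM in young samples A, B and C and 1357, 1200.0 and 1287 CPM in aged samples, so the groups overlapped. Srsf1, a founding SR protein that promotes use of weak splice sites, had the highest log2 fold change of the family. It held 42.2, 35.7 and 41.1 CPM in young and 31.3, 60.9 and 51.6 CPM in aged samples (means 39.7 ± 3.50 and 47.9 ± 15.1, SD, n = 3 each). Aged sample A was below all young samples and the other two aged samples were above them, and the log2 fold change was 0.27 (SE 0.23, 95% interval -0.24 to 0.78, adjusted p = 0.429).

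Srsf2 and Srsf9 were the most abundant SR genes per kb, at 172 and 155 CPM per kb. Srsf2 held 369.7, 211 and 233 CPM in young and 334, 256 and 264 CPM in aged samples (means 271 ± 85.8 and 285 ± 42.9, log2 fold change 0.07, SE 0.23, 95% interval -0.44 to 0.57, adjusted p = 0.86). Sample A was the highest of each age, and the groups overlapped. Srsf2 lies across from Mettl23 and Mfsd11 on the opposite strand, and without stated use of strand in the counting their reads may not be told apart. Srsf9, a small SR protein, held 149, 124 and 153 CPM in young and 142, 161 and 168 CPM in aged samples, with overlap (means 142 ± 15.5 and 157 ± 13.8, log2 fold change 0.15, SE 0.16, 95% interval -0.21 to 0.50, adjusted p = 0.552).

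Srsf5, an SR protein that responds to growth stimulation, had the highest coefficient of variation of all members in each age (43.4% and 89.3%). It held 194, 110.2 and 86.4 CPM in young and 217, 49.1 and 54.4 CPM in aged samples. In each age sample A was the highest, at 1.97 times the mean of young B and C and 4.19 times the mean of aged B and C, and the groups overlapped. The means were 130.2 ± 56.6 and 107 ± 95.4 CPM (SD, n = 3 each), with a log2 fold change of -0.29 (SE 0.51, 95% interval -1.43 to 0.85, adjusted p = 0.724). Without aged sample A the log2 fold change was -1.33 and the gene was called lower (adjusted p = 0.0301), and without young A, aged B or aged C it was positive (0.12, 0.07 and 0.04). Srsf2 (1.66 and 1.28 times) and Srsf6 (1.67 and 1.33 times) were also higher in sample A of both ages. The labels name the letters as SET A, B and C in both ages and do not say what a set is.

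**Figure D5:**
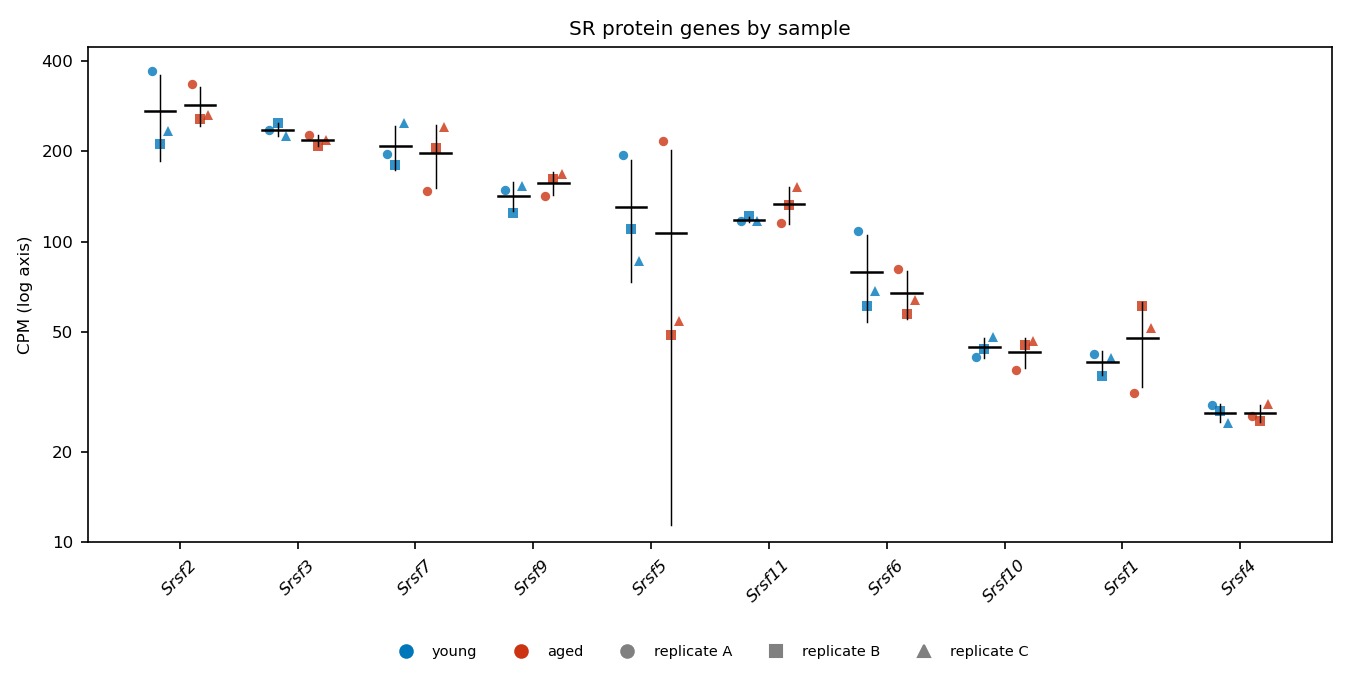
Level in CPM (log axis) of the 10 SR genes in each sample, with the mean (horizontal bar) and SD (vertical line) of 3 young and 3 aged samples. Young and aged points overlap for every gene, and Srsf5 in replicate A (circles) stands at 194 CPM in the young and 217 CPM in the aged sample, above the other samples of each age.

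The 6 SR genes not named by sample (Srsf3, Srsf4, Srsf6, Srsf7, Srsf10 and Srsf11) had log2 fold changes from -0.23 for Srsf6 to 0.17 for Srsf11, and all overlapped between the ages. Srsf3 was the steadiest among the abundant ones, with means of 235 ± 11.8 and 217 ± 9.08 CPM (SD, n = 3 each). Its log2 fold change was -0.12 (95% interval -0.45 to 0.22, adjusted p = 0.616).

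None of the 20 hnRNP genes was called, and their log2 fold changes ran from -0.60 for Hnrnpa1 to 0.60 for Hnrnpa0 with adjusted p-values from 0.0682 to 0.999 (edgeR). DESeq2 called Hnrnph2 higher (adjusted p = 0.0328). Per kb the most abundant were Hnrnpk (466 CPM per kb), a poly(C)-binding protein, and Hnrnpa2b1 (443 CPM per kb), which binds purine-rich RNA. Hnrnpk held 467, 376 and 394 CPM in young and 543, 446 and 438 CPM in aged samples (means 413 ± 48.3 and 476 ± 58.3, log2 fold change 0.21, SE 0.17, 95% interval -0.18 to 0.59, adjusted p = 0.43). Hnrnpa2b1 held 691, 621 and 797 CPM in young and 700.4, 768 and 791 CPM in aged samples (means 703 ± 88.8 and 753 ± 47.0, log2 fold change 0.10, SE 0.17, 95% interval -0.28 to 0.48, adjusted p = 0.711). The groups overlapped in both genes.

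Hnrnpa1, an hnRNP that often opposes SR proteins at splice site choice, had the lowest log2 fold change of its family. It held 33.2, 23.2 and 28.3 CPM in young and 21.7, 19.7 and 14.7 CPM in aged samples. The groups did not overlap, with means of 28.3 ± 5.04 and 18.7 ± 3.61 CPM (SD, n = 3 each), a log2 fold change of -0.60 (SE 0.21, 95% interval -1.06 to -0.13) and an adjusted p of 0.0715, short of the threshold. Of the counts on Hnrnpa1 and its processed pseudogenes, 64.9% were listed on the pseudogenes, mostly on Gm10052, so the level of the gene itself is uncertain. With both added the samples held 100.4, 64.8 and 79.3 CPM in young and 64.8, 49.7 and 41.9 CPM in aged samples (log2 fold change -0.65, SE 0.21, adjusted p = 0.0613). Summed in this way, young B and aged A were level.

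Hnrnpa0, an intronless relative that binds AU-rich mRNA, had the highest log2 fold change of the family. It held 10.3, 5.93 and 5.55 CPM in young and 11.9, 11.02 and 10.1 CPM in aged samples. Young sample A reached the aged range while young B and C lay below it, and the log2 fold change was 0.60 (SE 0.27, 95% interval -0.0045 to 1.195, adjusted p = 0.147). Without young sample A it was 0.94 and the gene was called higher (adjusted p = 0.0215).

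A further 3 hnRNP genes with no overlap between the ages were singled out after their values were seen. Hnrnpl, which binds CA repeats, held 69.5, 55.4 and 66.4 CPM in young and 49.6, 46.8 and 41.6 CPM in aged samples (log2 fold change -0.47, 95% interval -0.83 to -0.11, adjusted p = 0.0682). Hnrnpdl, a relative of Hnrnpd, held 38.4, 44.1 and 37.6 CPM in young and 34.6, 20.1 and 27.1 CPM in aged samples (-0.55, -1.02 to -0.09, adjusted p = 0.0883), and without aged sample A it was called lower (adjusted p = 0.043). Hnrnph2, an X-linked gene of the G-tract-binding H/F group, held 257, 193 and 228 CPM in young and 315, 294 and 340.4 CPM in aged samples (0.49, 0.11 to 0.86, adjusted p = 0.0706), and without young sample A it was called higher (adjusted p = 0.0406). Aged samples were thus on opposite sides of the young samples for different hnRNP genes, and none of the 3 passed the edgeR test with TMM scaling and all samples. On total counts with no further scaling Hnrnpl (adjusted p = 0.029) and Hnrnpdl (adjusted p = 0.0367) were called lower, and DESeq2 called Hnrnph2 higher (adjusted p = 0.0328).

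The 3′ splice site group gave 0 calls in 13 genes, and all 13 had 95% intervals within a 2-fold change. At an unadjusted p under 0.05 there were 2, Sf1 and U2af1l4, and DESeq2 called neither. Sf1, the branch point binding protein, was second in the group per kb (76.3 CPM per kb; with pseudogene copies added U2af1 ranked above it, at 98.0 CPM per kb) and had the highest log2 fold change. It held 137, 83.4 and 86.9 CPM in young and 157, 142 and 146 CPM in aged samples. All aged samples were above all young samples, young A being the nearest, with means of 102.3 ± 29.7 and 148 ± 7.86 CPM (SD, n = 3 each) and a log2 fold change of 0.54 (SE 0.20, 95% interval 0.08 to 0.99, adjusted p = 0.0924). Without young sample A it was 0.80 and the gene was called higher (adjusted p = 0.00942).

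U2af1l4, a relative of the small U2af subunit that reads the AG at the 3′ splice site, had the lowest log2 fold change of the group. It held 21.3, 22.2 and 22.5 CPM in young and 16.95, 16.88 and 13.7 CPM in aged samples. The groups did not overlap (means 22.0 ± 0.617 and 15.8 ± 1.85, SD, n = 3 each), and the log2 fold change was -0.47 (SE 0.17, 95% interval -0.86 to -0.09, adjusted p = 0.0835). The gene overlaps Psenen on the opposite strand and Gm49396 on the same strand, so its counts are uncertain.

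Sf3b6, which contacts the branch point adenosine, was the most abundant of the group per kb (123 CPM per kb) and held 97.7, 83.1 and 108 CPM in young and 90.2, 88.1 and 93.3 CPM in aged samples. The aged values lay within the young range (means 96.4 ± 12.6 and 90.5 ± 2.61, log2 fold change -0.09, SE 0.16, 95% interval -0.44 to 0.26, adjusted p = 0.717). The other 10 genes of the group had log2 fold changes from -0.32 for Sf3a3 to 0.38 for Sf3a2. Sf3b1, the scaffold of the Sf3b complex, was at 186 ± 22.3 and 218 ± 48.6 CPM (SD, n = 3 each) with overlap (log2 fold change 0.23, 95% interval -0.21 to 0.67, adjusted p = 0.451).

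Processed pseudogenes held a part of the reads that may belong to the members. Of the 54 tested members, 19 had in the count table at least 1 processed pseudogene of 95% identity or more over 150 bases, and for 13 of them the pseudogenes took over 15% of the counts of gene and copies together. The share was 86.8% for U2af1, 84.8% for Hnrnpa3, 46.4% for Hnrnpk, 37.9% for Snrpf and 34.4% for Snrpe. Levels of these genes are therefore uncertain. In addition, 16 of the 54 tested members overlap another gene of the count table, among them Sf1, Hnrnpk, Snrpa, Snrpd3 and Snrpf. Without stated use of strand in the counting, reads of such pairs may not be told apart. Adding the copies to their genes left 2 members called lower and 0 higher, and moved the family medians to -0.55 for snRNP, -0.02 for SR, 0.06 for hnRNP and 0.10 for the 3′ splice site group. Summed with their copies, U2af1 was at 96.3 ± 20.7 and 84.6 ± 3.53 CPM and Hnrnpa3 at 148 ± 13.3 and 151 ± 9.85 CPM (SD, n = 3 each).

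Other genes of splicing were read from 5 lists. The LSm genes, the counterparts of the Sm ring on U6 RNA and on decaying mRNA, were centred at a log2 fold change of -0.48; of 10 genes, 2 (20%) fell and none rose, beside 7.97% of all tested genes called lower. Their transcripts had a median length of 803 bases, and among all protein-coding genes of 750 to 1000 bases 152 of 1010 were called lower. Lsm7 fell from 5.60 ± 1.42 to 2.57 ± 0.125 CPM (SD, n = 3 each, log2 fold change -1.12, SE 0.30, adjusted p = 0.0303), the only called fall beyond 2-fold in the 5 lists. Lsm4 fell from 77.5 ± 10.9 to 52.8 ± 4.81 CPM (-0.55, SE 0.17, adjusted p = 0.0439). The sum of the 10 genes was 259.8, 218 and 269 CPM in young and 204.3, 204.2 and 200.2 CPM in aged samples, with no overlap. Lsm10, a protein of the histone-processing U7 particle, had the opposite sign, at 44.1 ± 2.76 and 56.6 ± 1.62 CPM (log2 fold change 0.36, adjusted p = 0.112). So did Lsm11 (0.23, adjusted p = 0.519), named after its value was seen. Without young sample C, or without any 1 of the aged samples, 0 LSm genes were called, and without young B 1 was. With length and GC trends removed no LSm gene was called lower and 1 was called higher.

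Of 17 tested genes of snRNP assembly 1 (5.88%) fell and none rose, beside 7.97% of all tested genes called lower, with a median log2 fold change of -0.28. Clns1a, which holds Sm proteins before ring assembly, fell from 65.5 ± 7.50 to 42.3 ± 3.91 CPM (SD, n = 3 each, log2 fold change -0.63, SE 0.16, adjusted p = 0.0277). Next by adjusted p were Gemin2, which binds the open Sm ring, at 5.42 ± 0.549 and 2.85 ± 0.953 CPM (-0.92, adjusted p = 0.0624), and Snupn, the import adaptor of snRNPs, at 7.71 ± 2.01 and 4.83 ± 1.504 CPM (-0.67, adjusted p = 0.144). Smn1, the core of the assembly complex, was at 18.9 ± 1.63 and 19.5 ± 2.08 CPM (log2 fold change 0.05, adjusted p = 0.871). The count called lower was 0 without young B, young C, aged A or aged C and 2 without aged B.

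The other core spliceosome genes (62 tested) were centred at -0.00, with 3 (4.84%) that fell and 1 (1.61%) that rose, both below the 7.97% and 9.73% of all tested genes. The 3 were Snrnp25 of the minor spliceosome (log2 fold change -0.86, adjusted p = 0.0203), Bcas2 of the Prp19 complex (-0.65, adjusted p = 0.0242) and Prpf31 of the tri-snRNP (-0.54, adjusted p = 0.0404). Slu7, a factor of the second splicing step, rose from 60.5 ± 3.08 to 85.5 ± 6.85 CPM (SD, n = 3 each, 0.50, adjusted p = 0.045). The count called lower was 0 without young C or aged C and 1 without aged A or aged B, and the count called higher was 0 when young B, young C, aged B or aged C was left out and 3 of 63 (4.76%, against 13% of all tested genes) when young A was.

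Among 24 SR-related proteins and SR kinases the median log2 fold change was 0.28, with 1 (4.17%) that rose and none that fell, beside 9.73% of all tested genes called higher. Scaf4, which binds the RNA polymerase II tail, rose from 10.6 ± 2.66 to 19.6 ± 3.41 CPM (SD, n = 3 each, 0.88, adjusted p = 0.0293). Next by adjusted p were Srrm1, a splicing co-activator (log2 fold change -0.51, adjusted p = 0.0573), and Clk3, a kinase of SR proteins (0.54, adjusted p = 0.0606), neither of which passed. Without young A 6 of the 24 (25%) were called higher, in a fit that called 13% of all tested genes higher, and without young B, young C or aged C none was. Among 36 other splicing regulators the median was 0.11 and 4 (11.1%) rose with none that fell, a share near the 9.73% of all tested genes. Ptbp3 rose from 113 ± 19.8 to 212 ± 14.9 CPM (log2 fold change 0.91, adjusted p = 0.0111), Rbm5 from 39.2 ± 5.85 to 76.2 ± 14.1 CPM (0.96, adjusted p = 0.0122), Mbnl2 from 72.7 ± 11.1 to 114 ± 9.43 CPM (0.65, adjusted p = 0.0279) and Celf1 from 28.1 ± 2.29 to 45.6 ± 10.1 CPM (0.70, adjusted p = 0.0355). Ptbp3 binds pyrimidine tracts, Rbm5 regulates exons of apoptosis genes, and Mbnl2 and Celf1 act on many shared exons. Of these 36 regulators, 2 were called higher without young B or aged C and 0 without young C.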

How the data were processed

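The members and the gene lists were chosen with earlier results of these data known; the symbol rule that lists the members uses no measured value. RNA of F4/80+ CD64+ cells was amplified with the SMART-Seq v4 kit. Per the methods and the submitters' processing notes, the authors aligned reads with STAR 2.7.3a to mm10 and quantified Ensembl transcripts in Partek Flow, and deposited expected counts per gene, not normalised. Whether strand was used in counting is not given in the sources used here. A second deposited table holds the authors' DESeq2 comparison (size-factor signals, fold changes and p-values) and was not used.

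Expected counts (30.7% to 34.0% of values not whole) were rounded. edgeR 4.0.16 in R 4.3.3 was run with TMM scaling, filterByExpr and a two-sided quasi-likelihood test for age, with Benjamini-Hochberg adjustment over 11878 genes and a threshold of 0.05; beyond 2-fold was counted as well. CPM used TMM-scaled totals, and confidence intervals are the log2 fold change ± t × SE. Total counts of 15270103 to 17927483 limit precision at low levels: mean levels of Snrpf, Snrpg and Hnrnpul2 lay below 10 CPM in both ages, of Hnrnpa0 in young samples, and of Snrpe and the called Snrpd2 in aged samples. Replicates differed beyond counting noise (chi-square per degree of freedom 31.9 to 121), so none was counted as a duplicate. Full values by sample were given for called members, for the highest and lowest log2 fold change of each family and for the 2 most abundant per kb, and in the other lists means or fold changes for genes changed beyond 2-fold or else the 3 smallest adjusted p; Srsf3, Sf3b1, Hnrnpa3, Slu7, Celf1, Lsm4, Lsm10, Smn1 and others so marked were named with their values in view. Lengths, overlaps and copies came from GENCODE M21 (BLAST 2.17.0) and covered 98.3% of tested genes; promoters came from RefSeq. Scripts were tested on simulated data. Alternatives were DESeq2 1.42.0 and its size factors, limma 3.58.1 (voom), no scaling, no or a stricter filter (10 counts), a replicate block, each sample left out and, added after seeing the data, pseudogene copies summed and length and GC trends removed.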

Additional observations from a re-analysis of the deposited data

How the results depend on the processing

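With 15 alternatives for each result, the snRNP median log2 fold change stayed negative (-0.73 to -0.42). On total counts with no further scaling, 10 members were lower (6 snRNP, 3 hnRNP, 1 of the 3′ splice site group; 1 beyond 2-fold), the medians were -0.21 (SR), -0.11 (hnRNP), -0.0653 (3′ splice site) and -0.20 (all genes), Hnrnpa1 (-0.77) and U2af1l4 (-0.65) passed the threshold, 10 of 54 members changed sign (Hnrnpa2b1 -0.0739, Srsf2 -0.12, Srsf9 -0.0297, Srsf11 -0.013 and 6 others), and the lists gave 0 higher for the core spliceosome, 1 lower and 0 higher for SR-related genes, 2 lower for assembly and 2 higher for other regulators; the construction of this setting leaves in the shift of all genes. DESeq2 called 1 member higher (1 hnRNP), 2 core spliceosome and 2 SR-related genes higher, with an all-gene median of 0.00015. Without a low-count filter there were 0 core spliceosome genes higher and 1 LSm gene lower, and with 10 counts in each sample 1 SR-related gene lower. With length and GC trends removed, 1 member (1 snRNP) was lower, Snrpd2 (-0.62) lost its call, 10 of 54 members changed sign (Sf3b6 0.12, Snrpb 0.10, Snrpc 0.031, Sf3b1 -0.0527, Sf3b3 -0.065, Sf3a1 -0.0453, Hnrnpa3 0.0192 and 3 others), the 3′ splice site median was -0.0453 and the all-gene median -0.0050, and the lists gave 0 core spliceosome higher, 0 LSm lower and 1 higher, 1 SR-related lower and 2 other regulators higher. The cause of these moves was not tested.

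The replicate block called 2 members lower and 0 higher. In the lists it called 2 core spliceosome genes lower and 0 higher, 1 LSm gene lower and 3 other regulators higher. Deviations of same-lettered samples had r of 0.18 (A), -0.02 (B) and 0.11 (C), and the value for A was the highest of all pairs. These values do not settle whether the letters pair the samples, and the labels do not say. The block is therefore given as an alternative only. Not every sample correlated best with its own letter.

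Leaving out each sample in turn gave 0 to 3 members lower, 0 to 3 higher and 0 to 1 lower beyond 2-fold. By family this was 0 to 1 SR lower, 0 to 1 hnRNP lower, 0 to 2 hnRNP higher, 0 to 3 snRNP lower and 0 to 1 of the 3′ splice site group higher; medians ran from -0.0629 to 0.0942 (SR), -0.0146 (without young B) to 0.10 (hnRNP), -0.0112 to 0.14 (3′ splice site) and -0.0387 to 0.00456 (all genes). The lists gave 0 to 3 core spliceosome lower and 0 to 3 higher, 0 to 2 LSm lower, 0 to 6 SR-related higher, 0 to 2 assembly lower and 0 to 5 other regulators higher. No member that changed sign in 1 of these fits was called in that fit or in the main fit. Srsf5 was called lower only without aged A, where it was negative as in the main fit. Of the 54 members, 17 changed sign in at least 1 of these fits. Among the 16 members given by sample under the naming rule, 4 did: values ran from -0.0762 (without young B) to 0.36 (without young A) for Srsf2, negative also without young C (-0.03) and aged A (-0.06); from -0.18 (without young B) to 0.00115 (without young C) for Sf3b6; from -0.14 (without young B) to 0.0128 (without young C) for Snrpb; and from -1.33 (without aged A) to 0.12 (without young A) for Srsf5, positive also without aged B (0.07) and aged C (0.0351). Depth limits Snrpn, which was too low to be tested, and the low-level Snrpf, Snrpg, Hnrnpul2, Hnrnpa0, Snrpe and Snrpd2.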
